A study of Mus musculus with 12 samples.

Results

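RNA of cultured mouse melanocytes was measured for the genes of the proteasome and of the main enzyme families that attach, direct or remove ubiquitin. The members are protein-coding autosomal genes whose symbols start with Psma, Psmb, Psmc, Psmd, Psme, Ube2, Fbxo, Fbxw or Fbxl, or with Cul or Usp followed by a digit. They were found by reading the number in a probe's identifier as a mouse gene number. This gave 120 probes for 93 genes, of 7638 protein-coding genes that received a probe in this way and of 214 autosomal genes of these families in the RefSeq table. The rule used names only and no measured value. It also took in Psme3ip1, which encodes a partner of a proteasome activator, and Usp6nl, which encodes a GTPase-activating protein of Rab proteins and no protease, and both were kept as the rule gave them.

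The 12 arrays form 6 groups of 2. WT cultures, ATF2 mutant cultures without 4-OHT and ATF2 mutant cultures with 4-OHT were each cultured either in normoxia or under 1% O2 for 12 h. 4-OHT is the active form of tamoxifen. It switches on a Cre recombinase driven by the tyrosinase promoter, which then removes the floxed exons of Atf2 that encode part of the DNA-binding and leucine zipper domains. All cultures came from skin of newborn pups, labelled as of the strain FVB/129/OlaHsd/C57Bl/6, that lack Ink4a and carry a mutant NRAS transgene, which doxycycline induces, and all were labelled as given doxycycline. The WT arrays carry no label of 4-OHT, so WT cultures with 4-OHT are not part of any comparison, and the mutant cultures without 4-OHT bear the genotype ATF2-/- in their labels although the floxed exons should be intact without the drug. Cre driven by the tyrosinase promoter acts in pigment cells, so other cells in a culture would keep the exons. Nothing in the labels ties an array to an animal, and p-values measure only the spread between these arrays.

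The proteasome is a barrel-shaped protease, the 20S core, capped by the 19S regulatory particle, which binds ubiquitin chains and unfolds the protein to be degraded. Ubiquitin is passed from an E1 to an E2 conjugating enzyme, encoded mostly by Ube2 genes, and then to a substrate with the help of a ligase. In the largest class of ligases a cullin is the scaffold and, with Cul1, an F-box protein picks the substrate, while Usp proteases remove the chains again. In pigment cells these enzymes are known to control the level of MITF, the master transcription factor of melanocytes, as well as of cell cycle proteins, and low oxygen acts through a ligase built on a cullin that degrades the alpha subunits of the hypoxia-inducible factors.

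Several features of the whole series bear on the members. The probe for Atf2 was above background on 0 of 12 arrays, so the deletion cannot be checked with it. Xist was detected on 8 of 8 arrays of the mutant and 0 of 4 of WT, and the Y-linked Eif2s3y on 0 of 8 and 4 of 4, so that sex and genotype cannot be told apart in any comparison of mutant with WT, and members on the X and Y chromosomes were left out. All 4 melanocyte markers with a probe were above background on every array. All 6 skeletal muscle markers were above background on the mutant arrays with 4-OHT and on those without 4-OHT in normoxia, where their summed intensity was 6847 to 11250 units. On the mutant arrays without 4-OHT in hypoxia it was 897 to 1212 units and on the WT arrays 264 to 434 units, with 1 or 2 of the 6 above background. The summed intensity of 7 mitosis genes was 1924 to 4261 units on the mutant arrays without 4-OHT, 946 to 1235 with 4-OHT and 455 to 856 on the WT arrays. In bulk RNA, fewer cells of a type and less RNA per cell cannot be told apart.

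ATF2 binds, mostly as a dimer, to the cAMP response element, and the proteasome genes are known targets of factors that bind the antioxidant response element. The promoter windows of RefSeq (GRCm38.p6), 250 bases before to 50 bases after a gene's start, were therefore searched on both strands for TGACGTCA (the cAMP response element), TGACNNNGC (the antioxidant response element) and ACGTG (the core bound by hypoxia-inducible factors). Of the 93 members, 76 had a window. The first motif was found in 2.63% of these genes, against 2.03% of 27025 genes with a window, the second in 26.3% against 14.0%, and the third in 31.6% against 21.8%. The 27025 genes were not limited to protein-coding genes, as the members are. Among the 20 members with the second motif, the proteasome genes were Psmb5, Psmb6, Psmc6, Psmd9 and Psme4. The others were E2, cullin, F-box and Usp genes. Of the windows, 3 are shown, in lower case with every match in capitals. Psmd8 is the member with the most stable difference between groups and holds none of the motifs. Ube2h is the tested member that holds the cAMP response element, 24 bases before its start in 1 of its 2 windows. Psmb5, which encodes the chymotrypsin-like subunit, holds ACGTG 58 and TGACNNNGC 47 bases before its start, and no matches overlap in these windows.
Psmd8, chr7:29180624-29180923, minus strand: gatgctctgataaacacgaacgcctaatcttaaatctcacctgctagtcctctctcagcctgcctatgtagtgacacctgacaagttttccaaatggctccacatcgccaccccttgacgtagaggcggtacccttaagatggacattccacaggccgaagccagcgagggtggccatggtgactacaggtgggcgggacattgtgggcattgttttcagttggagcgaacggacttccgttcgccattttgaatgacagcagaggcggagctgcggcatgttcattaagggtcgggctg
Ube2h, chr6:30304490-30304789, minus strand: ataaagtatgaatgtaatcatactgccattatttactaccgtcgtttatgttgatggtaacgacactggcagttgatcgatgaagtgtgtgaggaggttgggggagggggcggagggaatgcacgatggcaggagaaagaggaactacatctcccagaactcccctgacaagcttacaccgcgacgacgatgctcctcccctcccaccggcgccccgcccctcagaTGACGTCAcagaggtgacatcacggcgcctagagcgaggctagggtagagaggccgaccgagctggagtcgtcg
Psmb5, chr14:54617946-54618245, minus strand: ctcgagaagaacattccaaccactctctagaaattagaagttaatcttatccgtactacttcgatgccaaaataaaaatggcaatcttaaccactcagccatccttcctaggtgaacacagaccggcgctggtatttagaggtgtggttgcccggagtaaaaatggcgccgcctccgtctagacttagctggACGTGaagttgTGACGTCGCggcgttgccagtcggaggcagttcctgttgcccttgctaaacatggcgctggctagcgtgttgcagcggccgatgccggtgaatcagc
A match is a description of the letters and not a site of binding.

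The authors derived an intensity for each probe, on a linear scale, with a detection p-value that sets the probe against negative control beads. Of the 93 members, 62 were tested, with a probe above background (detection p under 0.01) on 1 array or more and on all 12 arrays for 43 of them, each by its brightest kept probe. The other 31 were above background on no array, which does not show that they were not expressed. Among these were Psmb8, a catalytic subunit of the immunoproteasome, Ube2c, the E2 of the anaphase-promoting complex, Cul4a and Cul5, and 3 members of the Usp17l cluster, whose near-identical copies the probes may not separate. By role, 7 of 9 subunits of the 20S core, 7 of 9 of the 19S particle, 4 of 4 in the activator group, 17 of 21 E2 genes, 1 of 3 cullins, 13 of 24 F-box genes and 13 of 23 Usp genes were tested. Values below are normalised log2 intensities, which can be compared between arrays for the same probe but not between probes.

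Replicate arrays agreed closely for most members. The median difference between the 2 arrays of a group was 0.11 log2 units in WT hypoxia, 0.14 in WT normoxia and 0.16 in the mutant without 4-OHT in hypoxia, but 0.28 in the normoxia group without 4-OHT and in the hypoxia group with it, and 0.42 in the mutant with 4-OHT in normoxia. The range over all 12 arrays was under 1 log2 unit for 24 of the 62 members and over 2 for 7, with a median of 1.10. The heat map of the members shows that the widest ranges lie in few rows.

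**Figure D1:**
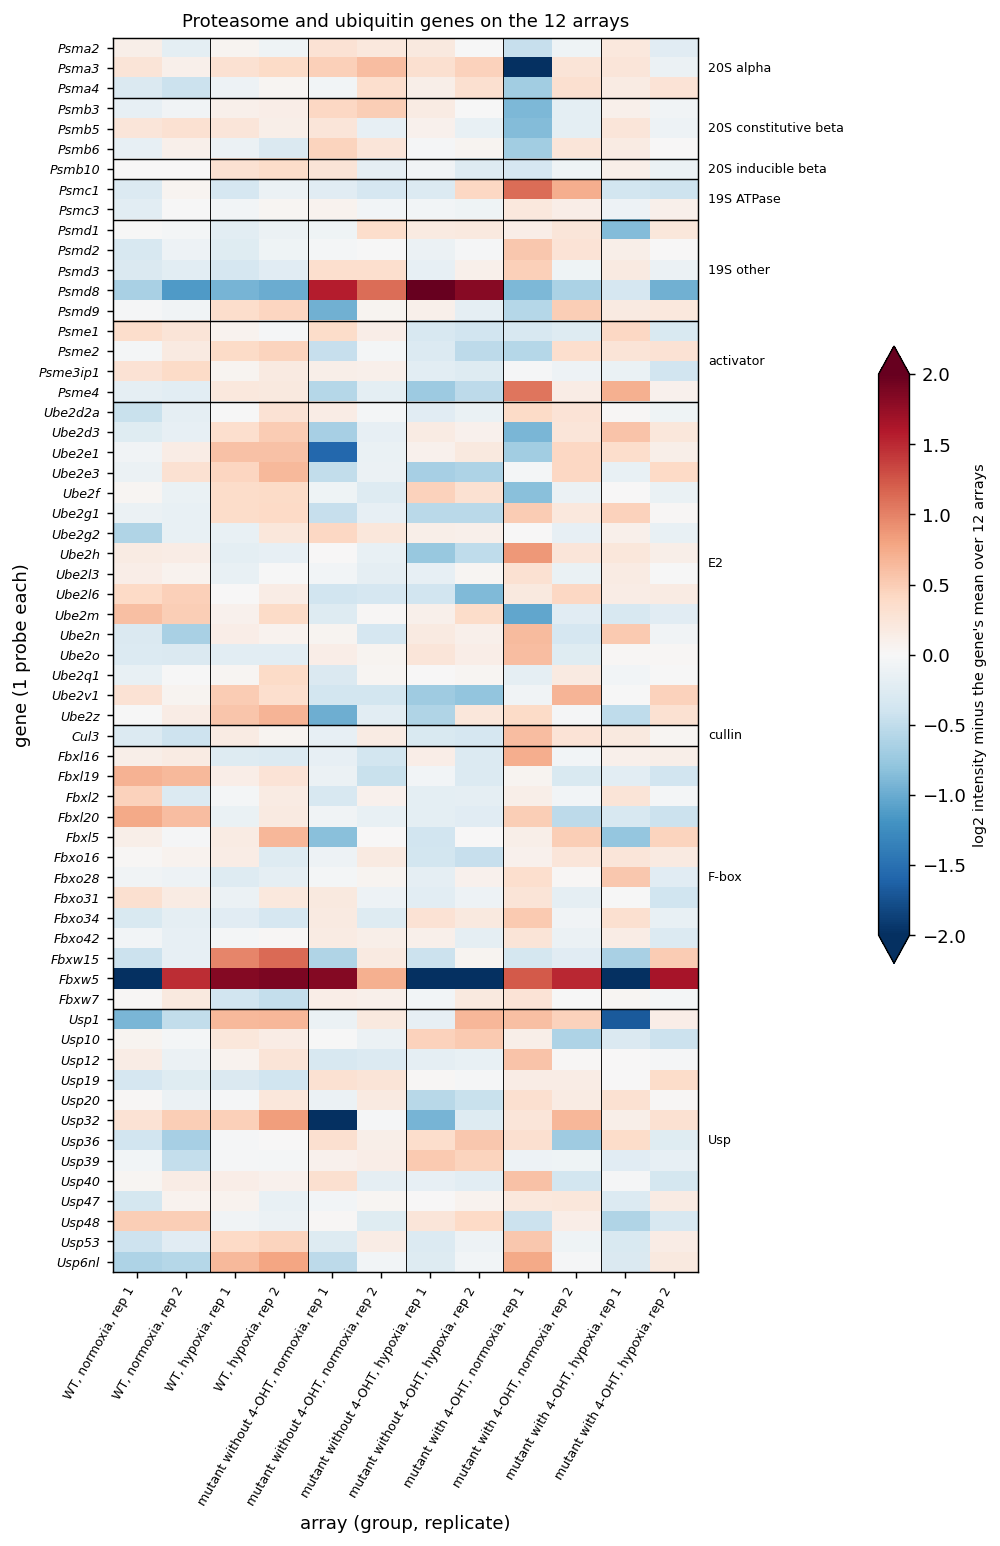
Normalised log2 intensity of 61 of the 62 tested genes (rows, grouped by role) on each of the 12 arrays (columns, ordered by group), as the difference from the gene's mean over the arrays, with the colour scale ending at 2 units either way. Psmd8 is high on the 4 arrays of the mutant without 4-OHT, Psma3 is low on 1 array of the mutant with 4-OHT in normoxia, and Fbxw5 switches between high and low within groups.

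Groups were compared with limma in 1 fit to the 12 arrays, with p-values adjusted over all 14908 kept probes and a threshold of 0.05 on the adjusted p. Over 9 comparisons 25 of 62 members (40.3%) passed at least once and 37 never did, where 50% of all kept probes passed at least once. The 2 groups did not overlap in any of the 41 calls of members, nor in any of the 19604 calls of all kept probes. Shares of all kept probes are given beside the counts, since a count close to that share is no result about these families.

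In the mutant with 4-OHT against WT in normoxia, 5 of 62 members (8.1%) were higher and 4 (6.5%) lower, against 11.1% and 11.7% of all kept probes. In hypoxia the same comparison gave no member in either direction by limma, with 8 at an unadjusted p under 0.05, against 6.83% and 5.86% of all probes. With the slide, which the arrays of a replicate number share, as a block, Fbxw15 and Usp1 passed as lower in this comparison. With that block 15.1% of all kept probes passed in either direction. For the mutant without 4-OHT against WT in normoxia, 3 members were higher and 2 lower, where the shares of all probes were 8.31% and 5.99%. In hypoxia 2 were higher and 8 lower, against 12.3% and 12.4%. Within the mutant in normoxia, 1 member was higher with 4-OHT than without it and 2 were lower, against 2.51% and 3.43% of all probes. Within the mutant in hypoxia, 8 were higher and 4 lower with 4-OHT, against 13.6% and 15% of all probes.

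In WT cultures 2 members were higher in hypoxia than in normoxia and none lower, against 5.29% and 4.84% of all probes, with 11 members at an unadjusted p under 0.05. In the mutant without 4-OHT no member differed between hypoxia and normoxia by limma, with 10 at an unadjusted p under 0.05, against 5.61% higher and 6.64% lower of all probes. With the slide as a block Fbxw5 passed here as lower. In the mutant with 4-OHT no member passed either, with 5 at an unadjusted p under 0.05, and only 0.0268% and 0% of all probes did. The median log2 fold change of the members lay between -0.21 and 0.15 over the 9 comparisons, and that of all kept probes between -0.06 and 0.04. A larger share of members than of all kept probes passed in only 1 comparison and direction, the mutant without 4-OHT below WT in hypoxia, at 8 of 62 (12.9%) against the 12.4% above.

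Single arrays moved these counts, in fits that leave 1 array in a group. For the mutant against WT in normoxia, with or without 4-OHT, the share of all kept probes that passed fell or rose with the count. For the mutant with 4-OHT against WT in hypoxia that share fell with every array left out. Members past the threshold in the mutant with 4-OHT against WT in normoxia numbered 9, but 0 without WT normoxia replicate 1, 3 without WT normoxia replicate 2 and 26 without replicate 2 of the mutant. For the mutant without 4-OHT against WT the count fell from 5 in normoxia and from 10 in hypoxia when any array was left out. For the mutant with against without 4-OHT it rose or fell from 3 in normoxia and fell from 12 in hypoxia. Both calls of hypoxia in WT were lost without any 1 of the 4 arrays. Each call-free comparison gave members past the threshold with at least 1 array left out. For the comparisons of 4-OHT and of hypoxia the share of all kept probes in such fits is not given, so these shifts are no result about these families.

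**Figure D2:**
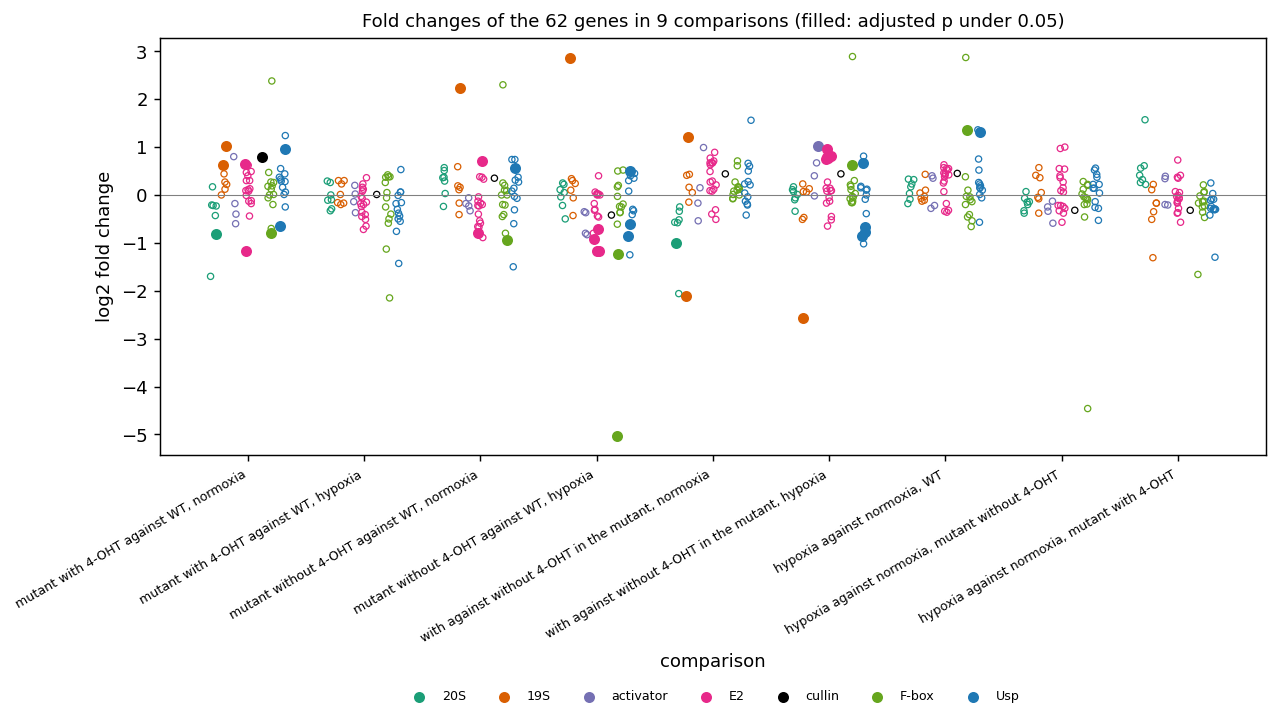
Log2 fold change (vertical axis) of the 62 genes in the 9 comparisons (horizontal axis), coloured by role, with filled points for an adjusted p under 0.05 and open points for the others. Most points lie within 1 unit of 0, and the filled points farthest from 0 are Psmd8 of the 19S particle and Fbxw5 of the F-box genes.

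The 19S regulatory particle held Psmd8, the only named member with calls that every alternative setting and every left-out array kept. It encodes a lid subunit of the particle. Its log2 intensity on the mutant arrays without 4-OHT was 11.22 and 10.78 in normoxia and 11.65 and 11.48 in hypoxia. On the other 8 arrays it was 8.53 to 9.32, so that these 4 arrays lay above all others with no overlap. Psmd8 was 4.69-fold higher than in WT in normoxia (log2 fold change 2.23, SE 0.25, adjusted p = 0.000164, limma) and 7.27-fold higher in hypoxia (2.86, SE 0.25, adjusted p = 2.9e-05). With 4-OHT it was lower than without, by a log2 fold change of -2.10 in normoxia (SE 0.25, adjusted p = 0.00275) and -2.56 in hypoxia (SE 0.25, adjusted p = 3.84e-05). The means of the mutant with 4-OHT and of WT were 8.89 against 8.77 in normoxia and 9.01 against 8.70 in hypoxia, and these differences did not pass. The gene has 1 probe among those named, and whether the probe's sequence differs between the strains in the mixed background was not tested. All of these differences kept their sign under every alternative, and only the normoxia effect of 4-OHT lost its call in 1 of them, a fit to the 4 arrays compared (adjusted p up to 0.214).

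The summed intensity of the mitosis genes was highest on the same 4 arrays. That of the skeletal muscle markers was 7801 and 11250 units on the mutant arrays without 4-OHT in normoxia and 897 and 1212 units on those in hypoxia. The part of either in the Psmd8 difference was not tested.

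Of the other 6 tested subunits of the particle, Psmc1 and Psmd2 passed at least once, where 50% of all kept probes did. Psmc1, an ATPase that helps open the gate of the core, was above background on 2 of 12 arrays, both of the mutant with 4-OHT in normoxia (5.83 and 5.44), with 4.30 to 5.13 on the others. There it was at least 1.23-fold higher than in WT (fitted log2 fold change 1.03, adjusted p = 0.0111) and at least 1.26-fold higher than without 4-OHT (1.21, adjusted p = 0.0197). These bounds set the dim group, on each array, at the higher of its own value and the lowest signal above background, which was 5.08 to 5.59, with 1 probe left out that was called above background on 9 arrays at a signal below that of other probes not above it. The effect of 4-OHT on Psmc1 was smaller in hypoxia than in normoxia by 1.67 on the log2 scale in a test of the difference, where 5.1% of all probes passed in either direction. Psmc1 was kept for testing only through the 2 arrays of the group where it was high, so its calls are not independent of that filter. With the detection p as deposited all of them were lost. Without the filter the calls for 4-OHT in normoxia and for the difference were lost. Psmd2, a base subunit that docks shuttle factors, was 10.19 and 9.92 in the mutant with 4-OHT and 9.33 and 9.54 in WT in normoxia, a log2 fold change of 0.62 (SE 0.17, adjusted p = 0.0211). Psmc3, Psmd1, Psmd3 and Psmd9 passed in none of the 9 comparisons.

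In the 20S core, 2 of 7 subunits passed at least once, where 50% of all kept probes did. Each passed once, as lower in the mutant with 4-OHT in normoxia. Psmb5 read 9.23 and 9.91 there and 10.35 and 10.40 in WT, a log2 fold change of -0.81 (SE 0.24, adjusted p = 0.0355). Psmb3, a subunit without a catalytic site, was 9.82 and 10.53 there and 11.14 and 11.21 in the mutant without 4-OHT, a log2 fold change of -1.0 (SE 0.21, adjusted p = 0.0258). In both genes the lower value was that of replicate 1.

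That array was low for the whole core. All 7 subunits were lower on replicate 1 than on replicate 2 of the mutant with 4-OHT in normoxia, with differences (replicate 1 minus replicate 2) of -3.55 to -0.25 log2 units and a median of -0.71. The largest gap was that of Psma3, a member of the outer ring, which read 7.63 on replicate 1 and 10.80 to 11.54 on all 11 others. Psma4 read 8.99 and 10.01, and Psmb6, the caspase-like subunit, 10.09 and 11.04. The 7 tested 19S subunits differed by -1.06 to 0.56 with a median of 0.07 between the same arrays, all 62 members by a median of 0.09, and in the other 5 groups the median difference of the 20S subunits lay between -0.04 and 0.24. Without replicate 1, Psmb5 was -0.47 against WT and Psmb3 -0.65 against the mutant without 4-OHT, and neither passed. These genes were singled out after their values were seen.

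**Figure D3:**
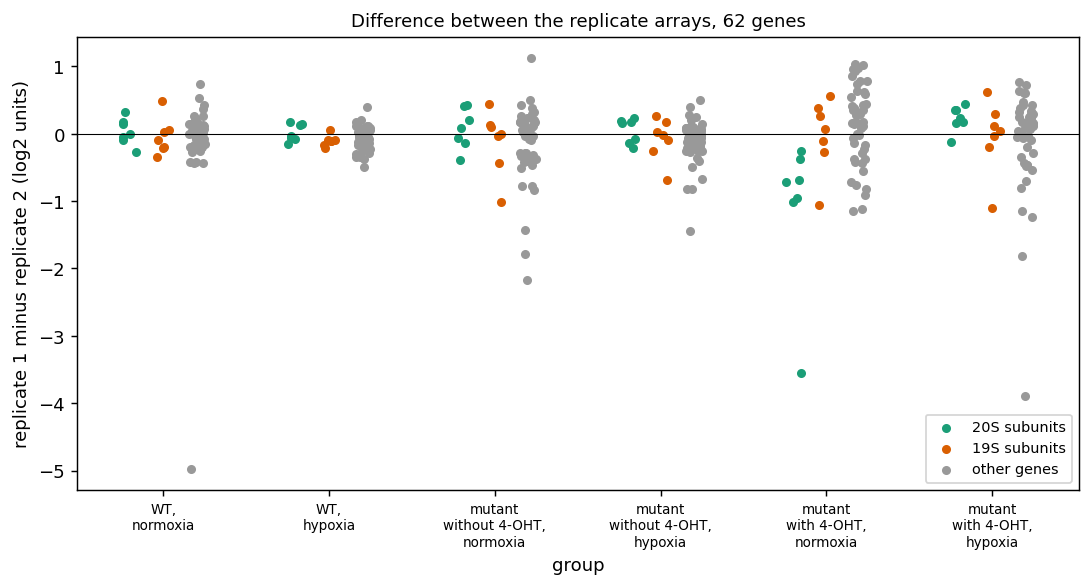
Difference between replicate 1 and replicate 2 (vertical axis, log2 units) for each of the 62 genes in each group (horizontal axis), with 20S subunits, 19S subunits and all other genes in separate columns. In the mutant with 4-OHT in normoxia all 7 subunits of the 20S core lie below 0, with Psma3 at -3.55.

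By its brightest probes, the interferon-inducible part of the proteasome passed in no comparison without the slide as a block. Psmb10, a catalytic subunit of the immunoproteasome, read 8.61 to 9.31 over the 12 arrays. Psme1 and Psme2 encode the 2 subunits of the activator that often caps the immunoproteasome, and they ranged from 9.58 to 10.37 and from 6.41 to 7.42. In the mutant without 4-OHT in hypoxia Psme2 had a log2 fold change of -0.80 against WT at an adjusted p of 0.0512. With the slide as a block Psme2 passed here (adjusted p = 0.0307), as did Psme1 in the mutant with 4-OHT against WT in normoxia (-0.60, adjusted p = 0.0442). A dimmer second probe of Psme1 did pass as lower than WT, at -0.66 with 4-OHT and -0.71 without it in normoxia and at -0.78 without it in hypoxia, where the first probe gave -0.60, -0.06 and -0.37 and passed in none. Psme4 encodes a large nuclear activator that binds the core without ubiquitin. It was 8.49 and 7.86 in the mutant with 4-OHT in hypoxia and 7.05 and 7.25 without, a log2 fold change of 1.02 (SE 0.30, adjusted p = 0.0246), and the call was lost without replicate 1 of the first group or without either array of the second.

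The E2 genes were the largest tested family, with 17 genes against 13 each of the F-box and Usp genes. In hypoxia 4 of the 17 were lower in the mutant without 4-OHT than in WT, namely Ube2e3, Ube2g1, Ube2l6 and Ube2v1, where 12.4% of all kept probes were lower. In the same oxygen, 5 of 17 were higher with 4-OHT than without it, the same 4 and Ube2h, where 13.6% of all kept probes were higher. These comparisons share the arrays of the mutant without 4-OHT, so they are not independent, and the low values were those of the shared arrays.

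Ube2v1 encodes an inactive partner that steers Ube2n to chains that do not mark proteins for degradation. It read 7.23 and 7.16 on the mutant arrays without 4-OHT in hypoxia, 8.45 and 8.28 on the WT arrays and 7.93 and 8.40 on those with 4-OHT. The log2 fold changes were -1.17 against WT (SE 0.25, adjusted p = 0.00656) and 0.97 for 4-OHT (SE 0.25, adjusted p = 0.0137). In normoxia the mutant without 4-OHT was also low, at 7.57 and 7.58 against 8.23 and 8.0 in WT, but did not pass (-0.54, adjusted p = 0.184).

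Ube2e3 was 5.62 and 5.68 on the mutant arrays without 4-OHT in hypoxia, 6.72 and 6.94 in WT and 6.15 and 6.69 with 4-OHT. It fell by 1.18 on the log2 scale against WT (SE 0.24, adjusted p = 0.00581), and 4-OHT gave 0.76 (SE 0.24, adjusted p = 0.038). Ube2g1 was 7.65 on both mutant arrays without 4-OHT and 8.55 and 8.58 in WT, a log2 fold change of -0.92 (SE 0.19, adjusted p = 0.00607). A second probe of Ube2g1 gave -0.80 and passed as well. On the mutant arrays without 4-OHT in hypoxia, Ube2v1, Ube2e3 and Ube2g1 each lay below all 10 other arrays.

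Ube2l6, the E2 of the ubiquitin-like protein ISG15, was not above background on the mutant arrays without 4-OHT in hypoxia (5.23 and 4.73, against 5.61 and 5.76 in WT and 5.76 and 5.78 with 4-OHT) and was at least 1.22-fold higher in WT (adjusted p = 0.0192) and at least 1.29-fold higher with 4-OHT (adjusted p = 0.0091). In normoxia it was 5.23 and 5.27 without 4-OHT and 6.01 and 6.09 in WT, a log2 fold change of -0.79 (SE 0.19, adjusted p = 0.0162). The value of 5.23 in normoxia was not above background, where the lowest signal above it was 5.46. Among 7 tested genes of the interferon response and of antigen presentation, 3 (H2-K1, Ifit3 and Irf9) were also lower than WT in the mutant without 4-OHT in hypoxia and none in normoxia. Of all kept probes 12.4% and 5.99% were lower there. Ube2h, whose promoter is printed above, was 8.12 and 8.37 without 4-OHT and 9.11 and 9.0 with it in hypoxia, a log2 fold change of 0.82 (SE 0.20, adjusted p = 0.0126). In normoxia the values were 8.89 and 8.73 against 9.75 and 9.13, which did not pass (0.63, adjusted p = 0.0968).

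Markers of other cell types differed between the same hypoxia arrays. All 6 skeletal muscle markers were higher with 4-OHT than without it, and their summed intensity was lowest on the WT arrays. The summed intensity of the 3 keratinocyte markers with a probe was 141 and 186 units on the mutant arrays without 4-OHT in hypoxia, 340 and 390 with 4-OHT and 556 and 630 on the WT arrays, and 1 or 2 of the 3 were above background on each. Krt17, a keratin of skin appendages and 1 of the 2 tested, was lower in the mutant without 4-OHT than in WT (log2 fold change -3.42, adjusted p = 2.16e-06) and higher with 4-OHT than without it (2.43, adjusted p = 8.16e-06). Of the 6 fibroblast markers with a probe, summed at 696 and 975, 863 and 1061, and 615 and 714 units on these arrays, 1 to 3 were above background. Dcn and Col6a1, 2 of the 3 tested, were higher with 4-OHT than without it, and none of the 3 passed between the mutant without 4-OHT and WT. The part of these markers in the E2 differences was not tested.

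In normoxia 1 of 17 E2 genes (5.9%) was higher and 1 lower than WT in the mutant with 4-OHT, against 11.1% and 11.7% of all kept probes. Without 4-OHT 1 was also higher and 1 lower than WT, against 8.31% and 5.99%. Between the mutant groups with and without 4-OHT none passed, against 2.51% and 3.43%. These shares are at or below those of all kept probes and are no result about the E2 genes. Ube2m, which loads the ubiquitin-like protein NEDD8 onto cullins and so activates their ligases, was 8.07 and 8.89 in the mutant with 4-OHT and 9.71 and 9.61 in WT, a log2 fold change of -1.18 (SE 0.25, adjusted p = 0.00765). In the mutant without 4-OHT it was -0.67 against WT, which passed only with the slide as a block (adjusted p = 0.0478). Ube2d2a, a partner of many ligases, was 10.33 and 10.22 against 9.50 and 9.76, a log2 fold change of 0.64 (SE 0.17, adjusted p = 0.0228). Its second probe gave -0.08 and did not pass, so the probes of this gene disagree. In the mutant without 4-OHT, Ube2g2, known for the degradation of proteins of the endoplasmic reticulum, was at least 1.23-fold higher than in WT (adjusted p = 0.0428), where it was not above background.

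Cul3, the scaffold of ligases that use BTB proteins as adaptors, was the only cullin above background. It was 10.33 and 9.98 in the mutant with 4-OHT in normoxia and 9.44 and 9.30 in WT, a log2 fold change of 0.79 (SE 0.18, adjusted p = 0.0116). In hypoxia the same groups stood at 9.91 and 9.75 against 9.87 and 9.76 (0.01, adjusted p = 0.978). The difference between these effects was -0.77 at an adjusted p of 0.211, so that a dependence on oxygen was not shown.

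Among the F-box genes, Fbxl19, which has a zinc finger that binds unmethylated CpG, was the member lower than WT in both mutant groups in normoxia. It was 7.05 and 7.01 in WT, 6.41 and 6.06 with 4-OHT (log2 fold change -0.79, SE 0.19, adjusted p = 0.0121) and 6.24 and 5.92 without (-0.95, SE 0.19, adjusted p = 0.00615). The WT arrays are shared by both comparisons, and WT normoxia was above all other arrays of this gene. In hypoxia, where WT read 6.49 and 6.63, neither passed (-0.50 and -0.37). Fbxw7, which directs the degradation of Myc and cyclin E, read 7.23 to 7.97 on the 12 arrays and passed in no comparison. With the slide as a block it passed as higher in the mutant without 4-OHT than in WT in hypoxia (0.50, adjusted p = 0.0475).

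Fbxw5 differed widely within groups as well as between them. It was 4.39 on replicate 1 and 9.37 on replicate 2 of WT normoxia, and 5.66 and 9.55 on those of the mutant with 4-OHT in hypoxia. On both arrays of the mutant without 4-OHT in hypoxia it was low (4.54 and 4.90) and on the remaining 6 arrays it was 8.61 to 9.78. In hypoxia it was at least 20.4-fold lower in the mutant without 4-OHT than in WT, at a fitted log2 fold change of -5.04 with an SE of 1.41 (adjusted p = 0.0252). The call was lost without any 1 of the 4 arrays. The hypoxia response of the mutant without 4-OHT differed from that of WT by -7.33 (SE 1.99, adjusted p = 0.0378), and this test counts the low WT array as part of the WT normoxia mean.

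Fbxw15 belongs to a mouse cluster of closely related F-box genes that its probe may not separate. It was above background on both WT hypoxia arrays (6.01 and 6.17), but not on either WT normoxia array (4.61 and 4.88) nor on the mutant arrays without 4-OHT in hypoxia (4.61 and 5.10). It was at least 1.69-fold higher in hypoxia than in normoxia in WT (adjusted p = 0.0399) and at least 1.61-fold higher in WT than in the mutant without 4-OHT in hypoxia (adjusted p = 0.0288).

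**Figure D4:**
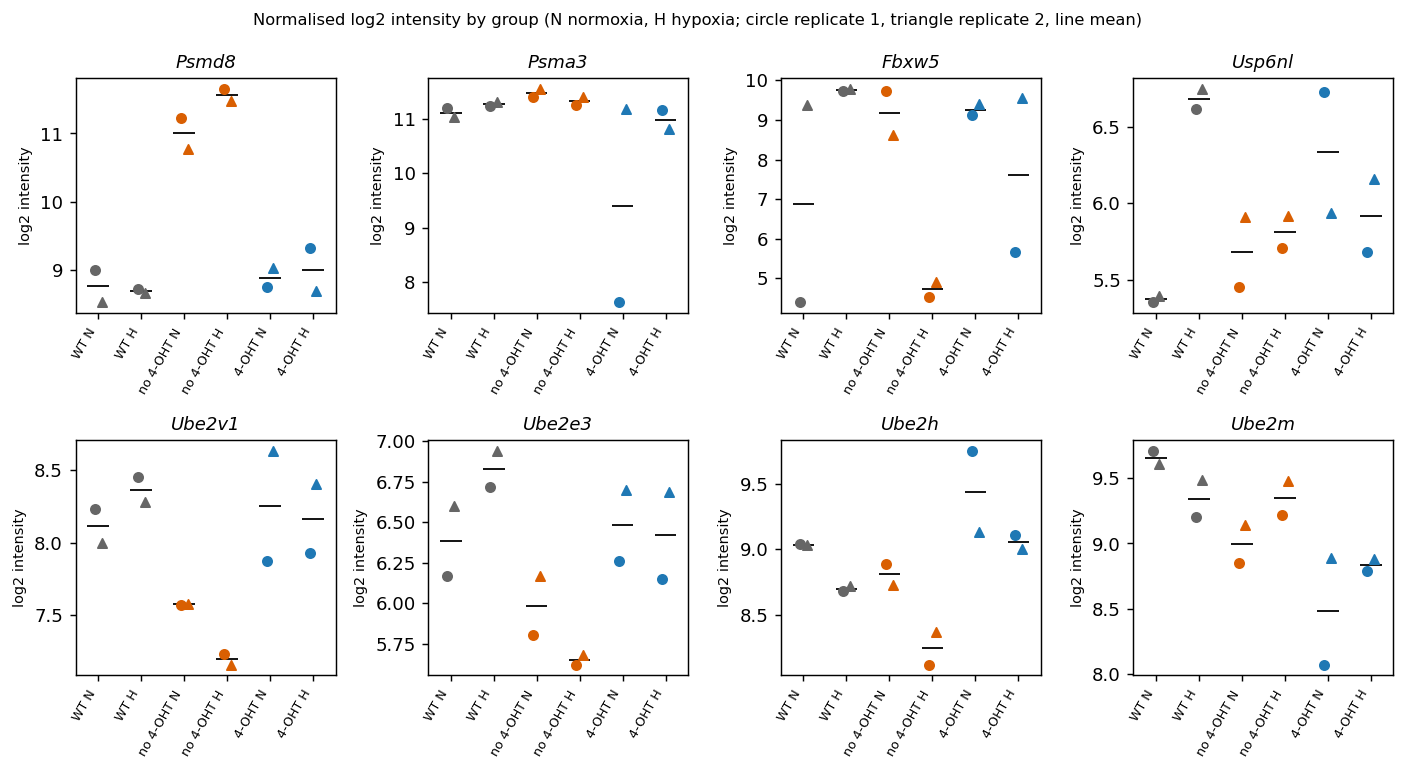
Normalised log2 intensity (vertical axes, each with its own range that does not start at 0) of 8 genes in the 6 groups (horizontal axes), with a circle for replicate 1, a triangle for replicate 2 and a line for their mean. Psmd8 stands apart in the mutant without 4-OHT, Psma3 is low on 1 array, and Fbxw5 differs widely within some groups. Usp6nl is high in WT hypoxia, and Ube2v1 and Ube2e3 are lowest in the mutant without 4-OHT in hypoxia.

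Among the Usp genes and Usp6nl, 6 of 13 passed at least once, where 50% of all kept probes did. Usp6nl read 6.62 and 6.75 in WT hypoxia and 5.35 and 5.39 in WT normoxia, a log2 fold change of 1.31 (SE 0.27, adjusted p = 0.0159). It was also 6.73 and 5.94 in the mutant with 4-OHT in normoxia, 0.97 above WT (SE 0.27, adjusted p = 0.0263), and 5.71 and 5.92 in the mutant without 4-OHT in hypoxia, 0.86 below WT (adjusted p = 0.0391). Its hypoxia response in the mutant groups was 0.14 without and -0.42 with 4-OHT, and the differences from WT did not pass (-1.17, adjusted p = 0.0729, and -1.73, adjusted p = 0.0928).

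Usp48 was 6.95 on both WT normoxia arrays, the highest values of this gene, and 6.40 and 6.35 in WT hypoxia. The mutant without 4-OHT went the other way, from 6.49 and 6.22 to 6.70 and 6.86, and the responses differed by 1.00 (SE 0.29, adjusted p = 0.0495), in a test that 11.8% of all probes passed. The call of Usp48 in that test was lost with median scaling, with the authors' normalized values and without the filter, and with any array of these groups left out. In that test 2 members passed, Usp48 and Fbxw5, and 4 with the slide as a block, where Fbxw15 and Ube2e3 were added. For the mutant with 4-OHT no member's hypoxia response differed from that of WT by limma, with 9 at an unadjusted p under 0.05, and 0.396% of all probes did. In hypoxia Usp48 was lower with 4-OHT, at 5.86 and 6.14, than without it, a log2 fold change of -0.78 (SE 0.21, adjusted p = 0.0162).

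Usp10, which acts on p53 and binds a stress granule protein, was 5.80 and 5.65 with 4-OHT and 6.54 and 6.6 without it in hypoxia (log2 fold change -0.85, SE 0.22, adjusted p = 0.014). Usp39, a splicing factor that has lost the protease activity, was 9.38 and 9.45 against 10.14 and 10.05 (-0.67, SE 0.17, adjusted p = 0.0123), and without 4-OHT it was above WT in hypoxia by 0.51 (adjusted p = 0.0479). Usp20 changed the other way, at 9.02 and 8.73 with 4-OHT and 8.16 and 8.27 without it (0.66, SE 0.18, adjusted p = 0.0195). Usp19 was 9.38 and 9.33 in the mutant without 4-OHT in normoxia and 8.74 and 8.83 in WT (0.57, SE 0.16, adjusted p = 0.0398). The Usp genes thus moved in both directions within the same comparison.

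Some members had 1 array far below its replicate, as found after their values were seen. Usp32 was 5.44 on replicate 1 of the untreated mutant in normoxia and 7.61 on replicate 2. It read 6.71 and 7.38 in the untreated mutant in hypoxia. The mutant arrays with 4-OHT and the WT arrays read 7.75 to 8.47, so all arrays without 4-OHT in the mutant lay below them. Usp1, which removes ubiquitin from proteins of DNA repair, was 5.14 on replicate 1 of the mutant with 4-OHT in hypoxia and 6.95 on replicate 2. Both WT normoxia arrays were also low for Usp1, at 5.90 and 6.32, while the remaining arrays read 6.65 to 7.48. Neither Usp32 nor Usp1 passed in a comparison, but with the slide as a block each gene passed in 3. Between replicates, 7 of the 62 members were at least 2-fold apart in the mutant with 4-OHT in normoxia, 5 in each of the mutant with 4-OHT in hypoxia and the mutant without it in normoxia, 1 in each of WT normoxia and the mutant without 4-OHT in hypoxia, and 0 in WT hypoxia. Over the 6 members with a second kept probe, 17 of 54 fold changes differed in sign between the probes, 2 were called by both, in the same direction, and 5 by only 1.

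Of 74 other genes of the pathway (E1 enzymes, partners of the cullins, the COP9 signalosome, the anaphase-promoting complex, assembly factors and ubiquitin itself), 38 had a probe and 32 were tested. In normoxia 3 were higher and 4 lower than WT in the mutant with 4-OHT, against 11.1% and 11.7% of all kept probes. In the mutant without it 2 were higher and 1 lower, against 8.31% and 5.99%. In hypoxia these counts were 2 and 1 with 4-OHT, against 6.83% and 5.86% of all kept probes, and 3 and 1 without it, against 12.3% and 12.4%. Cdc20, an activator of the anaphase-promoting complex, was higher in all 4, by log2 fold changes of 1.52, 1.31, 2.20 and 2.48, and is itself a gene of mitosis. Uba7, the E1 of ISG15, was lower with 4-OHT than in WT in normoxia (-0.65, adjusted p = 0.0155) and in hypoxia (-0.81, adjusted p = 0.0071), and without 4-OHT it was lower than in WT in hypoxia (-0.49, adjusted p = 0.0483).

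With against without 4-OHT, 1 of the 32 differed in normoxia, where Uba7 was lower (-0.83, adjusted p = 0.0188), and in hypoxia 2 were higher and 2 lower. Of all kept probes 2.51% were higher and 3.43% lower with 4-OHT in normoxia, and 13.6% and 15.0% in hypoxia. Psmf1, an inhibitor of the proteasome, fell in hypoxia in WT (-0.82, adjusted p = 0.0308) and in the mutant without 4-OHT (-0.88, adjusted p = 0.0164). With 4-OHT its log2 fold change in hypoxia was -0.05, and the difference of that response from WT did not pass (0.76, adjusted p = 0.252). Rbx1, the RING subunit of cullin ligases, was lower in the mutant with 4-OHT than in WT in normoxia (-0.80, adjusted p = 0.0366).

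In WT the oxygen treatment was visible in most tested genes known to respond to it. Of 6 tested genes of the hypoxia response, 5 (Egln1, Egln3, Eno1, Ldha and Pgk1) were higher in hypoxia in WT, where 5.29% of all kept probes were. The median over the 6 was a log2 fold change of 1.04. In the mutant without 4-OHT 2 (Ldha and Pgk1) were higher and 1 (Egln3) was lower, at a median of 0.43. There 5.61% of all kept probes were higher and 6.64% lower. With 4-OHT none passed, at a median of 0.74, where 0.0268% of all kept probes were higher. The median of the proteasome and ubiquitin members over the same 3 comparisons was 0.15, -0.06 and -0.13.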

How the data were processed

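Expression was measured on 12 Illumina Mouse-6 arrays of cultured mouse melanocytes, in 6 groups of 2 that follow the labels. The authors read the BeadChips and derived in BeadStudio 1 mean intensity per probe, deposited on a linear scale without background subtraction. The deposited detection p-values are p-values against negative control beads. A second deposited set holds intensities that the authors had background-subtracted and normalized by cubic splines, and served as an alternative with values under 16 set to 16.

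The non-normalized intensities were corrected by normexp with a background inferred from the detection p, given an offset of 16, quantile normalized and taken as log2 (neqc method, limma 3.58.1 in R 4.3.3). A detection p between 0 and its step of 1 in 1603 was taken as 0, which concerned 5 bright probes. The inferred background SD was then 5.86 to 7.00 units, against 100 to 178 as deposited. Probes detected at p under 0.01 on any array were kept (14908 of 46628, 4 control probes left out). 1 limma fit to 12 arrays, with 6 residual degrees of freedom, gave 9 contrasts of groups and 3 differences of contrasts, with Benjamini-Hochberg adjustment over all kept probes. The number of arrays limits the precision, and arrays of 1 replicate number share a slide: the correlation of same-numbered deviations was -0.22 to 0.60 over 15 pairs of groups, 12 of them over 0.1, so the arrays are paired by slide.

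Members, lists and tests were chosen with earlier results of these data known. Names rest on probe identifiers: the RefSeq table holds 82.6% of 11857 such numbers, and 46.0% once 1 is added to each. The rule for genes named here was: for each comparison the 4 largest rises and 4 largest falls past the threshold with no overlap between groups, and 22 members set by name, of which 11 have a probe; others are named as examples. The steps were tested on simulated data. The values of 1 tested member are not reported here, although counts over the members include it. Python 3.11.15 with pandas 2.3.3 made the tables and matplotlib 3.10.9 the figures.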

Additional observations from a re-analysis of the deposited data

Results flagged for a closer look

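A test of a difference between groups was passed by 3 members, as described above. The hypoxia response of the mutant without 4-OHT minus that of WT was 1.00 log2 units for Usp48 and -7.33 for Fbxw5, and the effect of 4-OHT in hypoxia minus that in normoxia was -1.67 for Psmc1. Fbxw5 was low on 1 of 2 WT normoxia arrays. Psmc1 was above background only on the 2 normoxia arrays with 4-OHT, through which alone it was kept for testing. The call for Psmc1 was lost with the detection p as deposited and with no filter. That for Usp48 was lost with median scaling, with the authors' normalized values and with no filter. Groups of 2 arrays are too small for a test of single outlying arrays.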

How the results depend on the processing

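None of 35 named fold changes reversed under any of 10 alternatives or with any array left out, and 3 kept their call throughout, all of Psmd8. With the slide as a replicate block all 35 kept their call. Median scaling in place of quantile normalization lost 27 of them, no filter 15, the detection p as deposited 13, a fit to the 4 arrays compared 11 of 32 and array weights per group 9. The cause was not tested. Median scaling moved the median of all probes by 0.14 for hypoxia in WT and by -0.18 for the difference of that response in the mutant without 4-OHT. Weights of the groups ran from 0.274 (mutant with 4-OHT, normoxia) to 2.33 (WT normoxia), and 2 arrays a group and the dimness of many probes limit all calls.

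Counts of members past the threshold moved by more than 1.5 times as follows. A count that has no share of all tested probes beside it cannot be set against that share and is no result about these families. For the mutant with 4-OHT against WT in normoxia the 9 became 1 with median scaling, 1 in a fit to the 4 arrays and 2 with array weights. The share of all kept probes went from 22.8% to 7.09%, 7.41% and 11.9%. In hypoxia the 0 became 2 with the detection p as deposited, 1 without background correction, 2 with the authors' normalized values, 1 with no filter and 2 with the replicate block. The share of all tested probes went from 12.7% to 9.07%, 12.4%, 12.2%, 3.84% and 15.1%. For the mutant without 4-OHT against WT in normoxia the 5 became 1 with median scaling, 12 in a fit to the 4 arrays and 14 with weights, and in hypoxia the 10 became 3, 30 and 29. The share of all kept probes in normoxia went from 14.3% to 6.11%, 19.6% and 24.8%. In hypoxia it went from 24.7% to 10.1% with median scaling. For 4-OHT in the mutant in normoxia the 3 became 1 with median scaling, 1 with no filter, 0 in a fit to the 4 arrays and 1 with weights, and in hypoxia the 12 became 1 with median scaling. For hypoxia in WT the 2 became 1 with the detection p as deposited, 1 without background correction, 0 with median scaling, 0 with no filter, 20 in a fit to the 4 arrays and 18 with weights. For hypoxia in the mutant without 4-OHT the 0 became 1 with the detection p as deposited, 1 with the replicate block, 3 in a fit to the 4 arrays and 6 with weights. The difference of the hypoxia response of the mutant without 4-OHT, 2 members, became 1 with the detection p as deposited, 0 with median scaling, 1 with the authors' values, 0 with no filter, 4 with the replicate block and 12 with weights. The difference of the 4-OHT effect, 1 member, became 0 with the detection p as deposited, with no filter and with weights.

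With each array left out in turn, the counts ran from 0 to 26 and 0 to 3 for the mutant with 4-OHT against WT in normoxia and hypoxia, 1 to 3 and 3 to 5 for the mutant without 4-OHT, 1 to 19 and 2 to 11 for 4-OHT, and 0 to 0, 0 to 2 and 0 to 13 for hypoxia in WT and in the mutant without and with 4-OHT. For the differences of the hypoxia response without and with 4-OHT and of the 4-OHT effect they ran from 0 to 1, 0 to 8 and 0 to 8.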
